A study of Mus musculus with 7 samples.

Results

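The ephrins, Slits and netrins and their Eph, Robo, Unc5, Dcc and neogenin receptors were examined in single nuclei of the mouse posterolateral cortical amygdala (plCoA). The set was defined by gene symbol and holds 42 of the 32285 genes in the gene list of the matrices: 16 on the ligand side (5 ephrin-A, 3 ephrin-B, 3 Slit and 4 netrin genes with the netrin antagonist Draxin), 24 receptors (9 EphA, 5 EphB, 4 Robo and 6 netrin receptor genes) and the 2 netrin-G genes. The study dissected 2 domains of this olfactory area, an anterior one (aplCoA) and a posterior one (pplCoA), and compared their cell types by droplet-based sequencing of sorted nuclei. Both groups were male wild-type C57BL6J mice, 8 weeks old, with no transgene and no treatment that differed between them, and all were kept alone without sensory input for a day and taken in the dark phase. Nuclei came from tissue pooled over several mice and were sorted for the DNA dye DRAQ7. There were 3 replicates per domain in 7 libraries, and the 2 libraries of aplCoA replicate 1 were summed.

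Ephrins are membrane-bound ligands, tethered by a lipid anchor in the A class and by a transmembrane segment in the B class, and they signal through Eph receptor tyrosine kinases on the cell they touch, often as a repellent cue. Slits are secreted proteins that repel axons through Robo receptors, and netrins attract growth cones through Dcc or repel them through Unc5 receptors. In the adult forebrain the same families remain in use at synapses and in glia, and the netrin-G proteins are lipid-anchored relatives that bind their own partners at synapses rather than Dcc.

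Summed over all barcodes, the libraries held 50812605 to 129624583 unique molecular identifiers (UMIs) and 4337 to 11078 barcodes with at least 1000 genes. Of these 52201 barcodes, 46412 nuclei were kept after filters on UMIs, mitochondrial and ribosomal percentages and doublets, and pairs of libraries shared 0.115% to 0.455% of the smaller library's barcodes. Nuclei were clustered without the guidance genes, and clusters were named from marker genes as glutamatergic neurons (19966 nuclei), GABAergic neurons (5127), astrocytes (9752), oligodendrocyte precursor cells (OPCs, 3641), newly formed oligodendrocytes (NFOLs, 297), mature oligodendrocytes (MOLs, 1532), microglia (2801), vascular leptomeningeal cells (VLMCs, 1854) and arachnoid barrier cells (ABCs, 1051). The vesicular glutamate transporter gene Slc17a7 was seen in 76.7% of the glutamatergic nuclei and Gad2, a GABA-synthesising enzyme gene, in 81.1% of the GABAergic nuclei. Macrophages (269 nuclei) and mural cells (33) had fewer than 20 nuclei in at least 1 replicate and were not tested, and no endothelial cluster was found. Replicate 1 of pplCoA stood apart from the other two in several glutamatergic clusters, which are named by number. Cluster 7, led by Moxd1 and Dcn, made up 4.598% of its glutamatergic nuclei against 26.4% and 25.0% in pplCoA replicates 2 and 3 and at most 1.28% in aplCoA. Clusters 2 and 4, mostly of aplCoA nuclei, made up 11.9% and 4.34% of it, against 2.56% and 0.504% in replicate 2 and 0.848% and 0.312% in replicate 3. The aplCoA replicates were uneven as well. Cluster 6 made up 15.9%, 32.8% and 7.19% of the glutamatergic nuclei of aplCoA replicates 1, 2 and 3, and at most 1.41% in pplCoA. Among its leading genes was Fign, which the study used to mark cells outside plCoA.

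Levels are given as CPM, the UMIs of a gene per 1000000 UMIs, summed per cell type and replicate. Of the 42 genes, 15 were seen in under 10% of nuclei in every cell type tested and were not compared between domains: Draxin, Efna1, Efna2, Efna3, Efna4, Efnb1, Epha1, Epha2, Epha8, Ephb3, Ephb4, Ephb6, Ntn3, Ntn5 and Robo4. Their highest mean level in any cell type lay between 0.0939 CPM (Robo4) and 23.8 CPM (Ephb4, in ABCs). The other 27 passed in at least 1 cell type, and Epha5, Epha6 and Unc5d passed in all 9. The levels across cell types below are descriptions, given as the mean ± SD over the 6 replicates.

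On the ligand side the ABCs, the barrier layer of the meninges, carried the highest levels of Slit2, Ntn1 and Efna5. Slit2 stood at 1543, 2298 and 1695 CPM in ABCs of aplCoA replicates 1, 2 and 3 and at 2653, 1552 and 2093 CPM in those of pplCoA, a mean of 1972 ± 452 CPM. The next cell type, glutamatergic neurons, had a mean of 66.1 CPM, so that the ABC level was 29.8-fold higher. Ntn1, the main netrin of the brain, averaged 499 ± 99.3 CPM in ABCs and 213 ± 16.1 CPM in OPCs, and at most 20.4 CPM in the other cell types tested. Efna5, an ephrin-A ligand of topographic maps, averaged 736 ± 114 CPM in ABCs, 207 CPM in GABAergic neurons, and 158 CPM in both glutamatergic neurons and VLMCs. In none of these 3 genes did the ABC replicates overlap those of the next cell type. The ABCs had 413, 102 and 382 nuclei in the aplCoA replicates and 54, 50 and 50 in the pplCoA replicates.

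The other ligands compared between domains were highest in neurons, MOLs or VLMCs among the cell types tested. Slit3 was highest in glutamatergic neurons at 1350 CPM, followed by ABCs at 491 CPM, and stood at 108 CPM in GABAergic neurons. Slit1 averaged 111 CPM in glutamatergic and 60.4 CPM in GABAergic neurons and at most 33.2 CPM (NFOLs) elsewhere among the types tested. The 2 neuron classes did not overlap in either gene. Efnb3, an ephrin-B ligand of myelin and neurons, reached 174 ± 25.7 CPM in MOLs and at most 35.1 CPM (VLMCs) in other types. Set against gene span, the Efnb3 level in MOLs was 24.6 CPM per kb, against 6.04 CPM per kb for Slit2 in ABCs, 2.30 for Slit3 in glutamatergic neurons and 2.81 for Ntn1 in ABCs. Efnb2 was highest in VLMCs at 81.4 ± 8.70 CPM and second in GABAergic neurons at 57.1 CPM, and Ntn4 was highest in GABAergic neurons at 15.6 CPM among the types tested. In the 33 mural nuclei, 1 to 13 per replicate, Ntn4 averaged 548 CPM and Ntn1 337 CPM, with Ntn4 at 0 in 3 of 6 replicates and at most 2352 CPM, so these levels rest on 29 and 27 UMIs.

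Among the receptors, several were highest in neurons or in the oligodendrocyte lineage. Unc5d and Epha6 were highest in glutamatergic neurons, at 1791 and 1806 CPM, and Epha5 and Robo2 in GABAergic neurons, at 1168 and 1242 CPM. The replicates of both neuron classes overlapped for Epha6 and Epha5 but not for Unc5d, and Robo2 in GABAergic neurons stood clear of astrocytes, the next type at 490 CPM. Dcc, the attractive netrin receptor, was highest in OPCs at 2258 ± 155 CPM and was seen in 99.4% of their nuclei, against 1406 CPM in glutamatergic and 1246 CPM in GABAergic neurons. Ephb1 was highest in NFOLs at 730 ± 195 CPM and overlapped there with MOLs at 474 ± 30.7 CPM, while glutamatergic neurons had 44.8 CPM. Epha4, a receptor of both ephrin classes, also peaked in NFOLs at 242 ± 59.9 CPM, followed by glutamatergic neurons at 135 CPM without overlap. NFOLs also had the highest Ephb2, 58.8 CPM, within the replicate range of OPCs at 44.97 CPM.

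Further receptors were highest in meningeal cells and MOLs. Robo1, a Slit receptor, stood at 2027 ± 196 CPM in VLMCs and 1809 CPM in GABAergic neurons, and these overlapped. VLMCs also had the highest Epha3 (259 CPM) and Epha7 (320 CPM), each overlapping the replicates of a neuron class. In ABCs, Unc5c averaged 1863 ± 342 CPM, overlapping with NFOLs at 1359 CPM, and Neo1, the Dcc paralogue neogenin, 581 ± 44.5 CPM. Unc5b, a repulsive netrin receptor, was highest in MOLs at 116 ± 15.9 CPM and second in GABAergic neurons at 27.3 CPM. The glutamatergic neurons led for Unc5a (31.7 CPM), Epha10 (108 CPM), Ntng1 (272 ± 38.9 CPM) and Ntng2 (46.8 CPM), overlapping the next type for Epha10 (GABAergic neurons, 98.4 CPM) and Ntng2 (OPCs, 35.3 CPM), and Robo3, a divergent Robo, had at most 1.25 CPM (NFOLs) in the other types tested. Below the 10% limit, Ephb3 was highest in astrocytes at 20.9 CPM. The summed receptor level was 10346 ± 381 CPM in GABAergic neurons, 8954 ± 419 CPM in glutamatergic neurons, 5755 CPM in OPCs and 264 CPM in microglia, the lowest. The summed ligand level was highest in ABCs at 3769 ± 494 CPM, with 1767 CPM in glutamatergic and 538 CPM in GABAergic neurons and 60.8 CPM in astrocytes, the lowest.

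**Figure D1:**
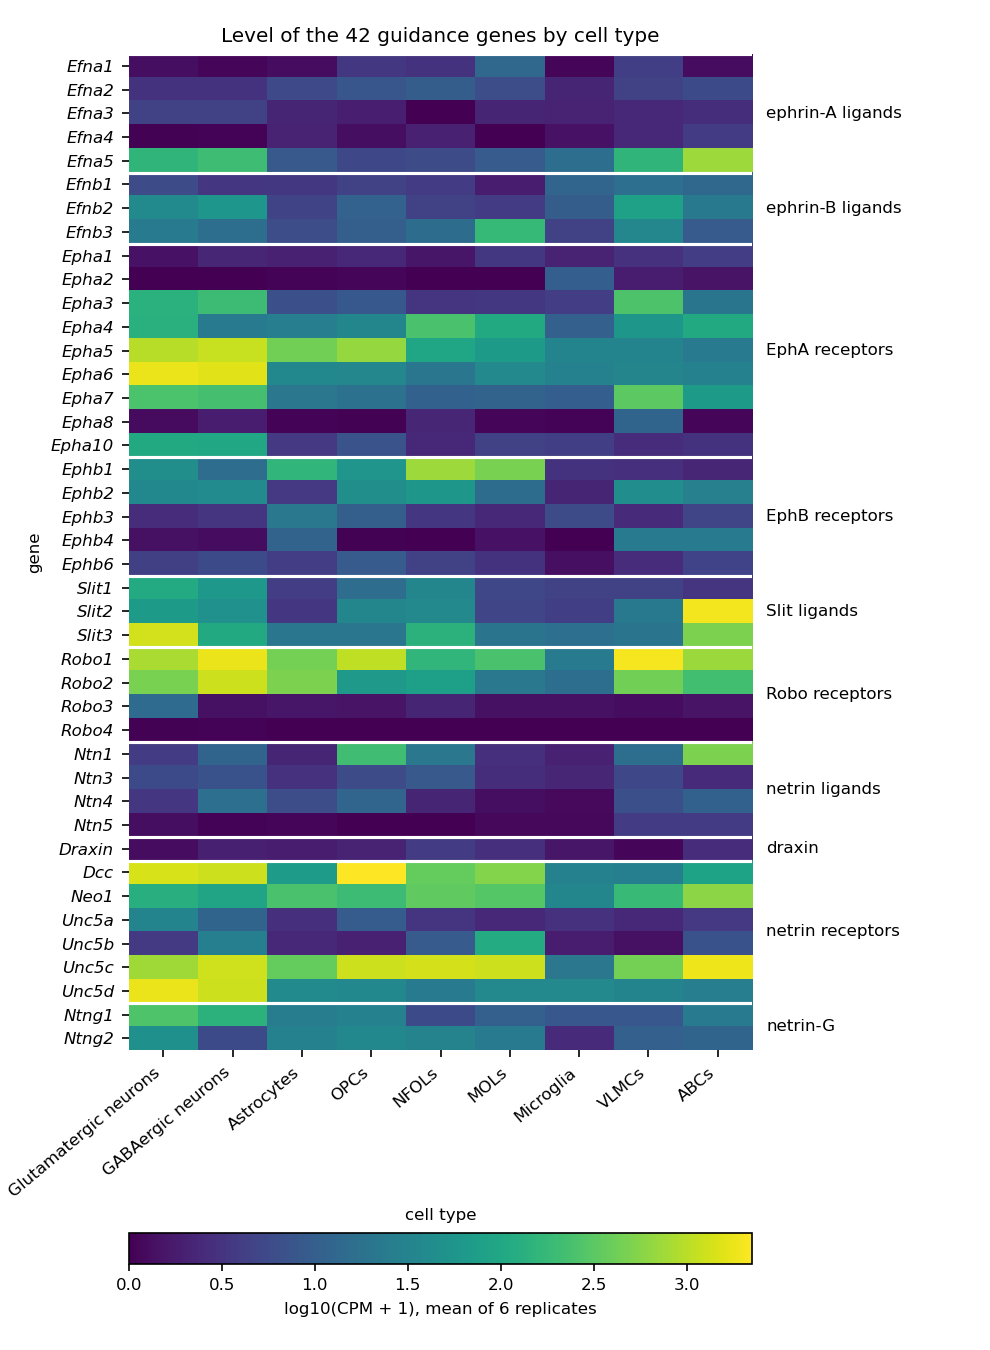
Mean level of each guidance gene in the cell types, on a colour scale of log10(CPM + 1) from dark (0) to yellow, with genes in rows grouped by family and the 9 cell types tested in columns. Slit2, Ntn1, Unc5c and Neo1 are brightest in ABCs (1972, 499, 1863 and 581 CPM), Dcc in OPCs (2258 CPM), and Slit3 and Unc5d in glutamatergic neurons (1350 and 1791 CPM).

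Free RNA can place UMIs in cells that do not express a gene, so the levels of the genes called in glutamatergic neurons, and of Dcc, were set beside 2 backgrounds. In barcodes with under 100 UMIs, the median level over libraries was 816 CPM for Unc5d, 699 CPM for Dcc, 537 CPM for Slit3, 125 CPM for Epha4, 88.6 CPM for Epha3, 62.6 CPM for Slit1, 59.6 CPM for Slit2, 45.2 CPM for Ephb1, 34.0 CPM for Unc5a and 9.99 CPM for Robo3. Glutamatergic neurons stood above that for Unc5d, Dcc, Slit3, Slit1, Epha3 (136 CPM) and Robo3 (13.8 CPM), while Slit2 (66.1 CPM) and Epha4 (135 CPM) were close to it and Ephb1 (44.8 CPM) and Unc5a (31.7 CPM) no higher. These are means over both domains, and in the lower domain all 3 Slit2 values (39.8 to 52.8 CPM), 2 Epha4 values (119 and 122 CPM), 2 Epha3 values (88.2 and 78.8 CPM) and 1 Robo3 value (8.49 CPM) lay under the free RNA medians. Microglia, which carried few of these transcripts, had a UMI of Unc5d in 13.1% of nuclei, of Dcc in 10.7%, of Slit3 in 6.18%, of Epha4 in 3.68%, of Slit1 in 1.25%, of Slit2 in 1.14% and of Unc5a in 0.857%. The same shares in glutamatergic neurons were 95.1%, 96.5%, 96.3%, 63.3%, 62.8%, 35.5% and 31.5%. In the same way Epha3, Ephb1 and Robo3 were seen in 1.05%, 0.916% and 0.0654% of microglia of aplCoA and 1.34%, 0.628% and 0.236% of those of pplCoA, and in 60.2%, 36.1% and 10.2% of glutamatergic nuclei of aplCoA and 52.2%, 25.1% and 16.3% of those of pplCoA. Median depth was 3182 UMIs per microglial and 12243 per glutamatergic nucleus. After every nucleus was thinned to 1000 UMIs, 40 of 42 highest levels stayed within 1 SD of the unthinned value, Efna3 and Epha7 moved beyond it, and the cell type with the highest level changed for Ephb4 and Ntn3 alone.

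Between the domains, glutamatergic neurons differed in all 3 Slit genes and in 6 receptors. Of the 24 genes tested there, 9 (37.5%) passed an adjusted p of 0.05 in edgeR's quasi-likelihood test on summed UMIs, against 21.0% of all 9702 genes tested. The genes higher in aplCoA were Slit2, Epha3 and Ephb1, 3 of 24 against 10.2% of all genes, and those lower in aplCoA were Slit1, Slit3, Epha4, Robo3, Unc5a and Unc5d, 6 of 24 against 10.8%. By role, 3 of 6 ligands, 6 of 16 receptors and neither netrin-G gene passed. The median absolute log2 fold change was 0.30 over the 24 genes and 0.14 over all genes. In 12 of 24 genes the CPM values of the domains did not overlap, against 43.4% of all genes. Log2 fold changes are aplCoA minus pplCoA throughout, with the standard error.

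The Slit ligands moved in opposite directions. Slit2 stood at 93.5, 80.5 and 79.9 CPM in aplCoA replicates 1, 2 and 3 and at 52.8, 39.8 and 49.99 CPM in pplCoA. The lowest aplCoA value lay above the highest pplCoA value, with a log2 fold change of 0.75 ± 0.11 (adjusted p = 0.00534). Slit3 stood at 1174, 1130 and 1183 CPM in aplCoA and at 1485, 1650 and 1477 CPM in pplCoA. These did not overlap either, now with pplCoA higher, at a log2 fold change of -0.49 ± 0.075 (adjusted p = 0.00606). Slit1 stood at 95.5, 85.1 and 103 CPM in aplCoA and at 122, 138 and 120 CPM in pplCoA, also without overlap, at -0.50 ± 0.088 (adjusted p = 0.00749). The Slit2 call held in all 16 alternative settings, with log2 fold changes between 0.64 and 0.95, and those of Slit1 and Slit3 in 15 of 16. The summed ligand level was 1598 ± 68.1 CPM in aplCoA and 1936 ± 95.1 CPM in pplCoA (SD, n = 3 replicates each), most of it Slit3.

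To show the start regions of Slit genes that moved oppositely and of Eph genes that moved either way, the 250 bases before the annotated start are printed from RefSeq on build GRCm38.p6, 5′ to 3′ on the gene's strand. Capitals mark the GC box, searched as GGGCGG and its reverse complement CCGCCC, where overlapping matches run together. Slit2 spans chr5:47981291-48307735 and Slit3 chr11:35121456-35708507, and the windows are chr5:47982905-47983154 (plus strand) for Slit2, which precedes a start inside the gene's span, chr11:35121206-35121455 (plus) for Slit3, chr16:63864176-63864425 (minus) for Epha3, chr9:102354694-102354943 (minus) for Ephb1 and chr1:77515089-77515338 (minus) for Epha4. Epha4 spans chr1:77367182-77515107, so its window too precedes a start inside the span and overlaps the span's end.
Slit2: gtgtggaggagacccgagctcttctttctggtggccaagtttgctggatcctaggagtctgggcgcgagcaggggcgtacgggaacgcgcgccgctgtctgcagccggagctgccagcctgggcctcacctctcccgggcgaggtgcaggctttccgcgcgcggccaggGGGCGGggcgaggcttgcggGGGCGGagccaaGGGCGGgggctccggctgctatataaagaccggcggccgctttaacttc
Slit3: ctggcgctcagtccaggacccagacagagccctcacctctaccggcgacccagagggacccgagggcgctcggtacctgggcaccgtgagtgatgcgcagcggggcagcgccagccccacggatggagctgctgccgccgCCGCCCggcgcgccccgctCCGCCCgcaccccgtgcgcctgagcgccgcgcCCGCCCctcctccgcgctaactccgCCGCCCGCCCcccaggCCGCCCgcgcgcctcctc
Epha3: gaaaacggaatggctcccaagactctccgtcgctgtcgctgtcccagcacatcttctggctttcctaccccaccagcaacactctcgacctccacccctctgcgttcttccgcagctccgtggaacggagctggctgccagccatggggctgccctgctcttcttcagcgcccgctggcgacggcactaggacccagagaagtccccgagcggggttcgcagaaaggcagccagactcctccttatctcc
Ephb1: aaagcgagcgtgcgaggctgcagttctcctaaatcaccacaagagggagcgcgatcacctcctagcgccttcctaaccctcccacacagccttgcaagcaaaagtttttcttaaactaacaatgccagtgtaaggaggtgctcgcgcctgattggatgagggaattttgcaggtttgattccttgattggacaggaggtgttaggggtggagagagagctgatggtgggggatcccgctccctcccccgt
Epha4: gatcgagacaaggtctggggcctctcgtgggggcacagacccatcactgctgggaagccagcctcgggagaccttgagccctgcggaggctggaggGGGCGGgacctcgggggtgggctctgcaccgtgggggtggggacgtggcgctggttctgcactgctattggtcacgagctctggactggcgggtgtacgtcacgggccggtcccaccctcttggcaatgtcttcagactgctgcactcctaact
The Slit2 window held 3 GC boxes and the Slit3 window 6, the Epha4 window 1 and the Epha3 and Ephb1 windows none. Such a box was found in 32.7% of 32851 promoters and in 29 of the 42 promoters listed for the guidance genes, some of which have more than 1. Robo3 and Unc5a, also lower in aplCoA, had 3 and 5 boxes in their windows. CACGTG was found in 2 of the 42 and in 6.02% of all promoters, and the palindromic pair CCCNNGGG in 9 of the 42 and in 11.8%. Dcc, Efnb3, Ntn1, Slit1 and Unc5d are named only.

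Among the Eph receptors of glutamatergic neurons, 2 were higher and 1 was lower in aplCoA. Epha3 stood at 158, 230 and 149 CPM in aplCoA and at 114, 88.2 and 78.8 CPM in pplCoA. The values did not overlap, with a log2 fold change of 0.85 ± 0.19 (adjusted p = 0.0160). The call was lost without pplCoA replicate 2 (adjusted p = 0.0670) or 3 (0.0582). It was also lost without the clusters led by Sim1, Etv1 or Fign, genes that the study used to mark cells outside plCoA (log2 fold change 0.39, adjusted p = 0.05003). Ephb1, an ephrin-B receptor, stood at 55.7, 63.5 and 62.7 CPM in aplCoA and at 41.95, 24.0 and 21.1 CPM in pplCoA. Replicate 1 of pplCoA was the nearest to the aplCoA values but did not reach them, and the log2 fold change was 0.97 ± 0.22 (adjusted p = 0.0177). The pplCoA values lay below, and the aplCoA values above, the free RNA median of 45.2 CPM (18.1 to 110 CPM in single libraries). It was not called without aplCoA replicate 1 (adjusted p = 0.0509), aplCoA replicate 2 (0.0618) or pplCoA replicate 2 (0.0727).

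Epha4 went the other way, at 119, 122 and 128 CPM in aplCoA and 144, 155 and 144 CPM in pplCoA. The domains did not overlap, and the log2 fold change of -0.35 ± 0.067 (adjusted p = 0.00963) was kept whichever replicate was left out. Epha7 had values of 249, 349 and 333 CPM against 257, 153 and 155 CPM, where pplCoA replicate 1 fell within the aplCoA range, and it did not pass (log2 fold change 0.64 ± 0.21, adjusted p = 0.0628). Without pplCoA replicate 1 it was 0.92 (adjusted p = 0.00207). The other tested Eph genes of glutamatergic neurons, Epha5, Epha6, Epha10 and Ephb2, had log2 fold changes between -0.22 and 0.29 and did not pass. Nor did the ephrins tested, Efna5 (0.20), Efnb2 (0.077) and Efnb3 (-0.14). Without the clusters led by Sim1, Etv1 or Fign, Efna5 passed at 0.67 (adjusted p = 0.0161), Ntng2 at -0.68 (0.00515) and Robo2 at 0.29 (0.0349), while Unc5a (-0.38, adjusted p = 0.0536) was lost along with Epha3.

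The remaining calls in glutamatergic neurons were Robo3 and the repulsive netrin receptors Unc5a and Unc5d, all lower in aplCoA. Robo3, which does not bind Slits as strongly as its relatives in mammals, stood at 11.0, 8.49 and 12.7 CPM in aplCoA and at 14.6, 17.2 and 18.9 CPM in pplCoA. There was no overlap, and the log2 fold change was -0.72 ± 0.16 (adjusted p = 0.0151). Leaving out aplCoA replicate 1, pplCoA replicate 2 or pplCoA replicate 3 gave adjusted p of 0.0592, 0.0583 and 0.0547. Unc5d stood at 1457, 1398 and 1858 CPM in aplCoA and at 1871, 2101 and 2060 CPM in pplCoA, where aplCoA replicate 3 came within reach of pplCoA replicate 1 without overlap. Its log2 fold change was -0.44 ± 0.12 (adjusted p = 0.0329), and it was called in 2 of 6 fits that left out a replicate (without aplCoA replicate 3 or pplCoA replicate 1). Unc5a stood at 29.7, 25.9 and 28.5 CPM in aplCoA and at 29.7, 40.8 and 35.6 CPM in pplCoA. Here pplCoA replicate 1 (29.74 CPM) lay barely above the highest aplCoA value (29.72 CPM), and the log2 fold change of -0.42 ± 0.12 (adjusted p = 0.0402) was called only without pplCoA replicate 1 among the 6 fits. Dcc (-0.31 ± 0.15, adjusted p = 0.178), Neo1 (0.051), Unc5c (-0.012), Robo1 (-0.042), Robo2 (0.12) and Ntng1 (0.11) did not pass.

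**Figure D2:**
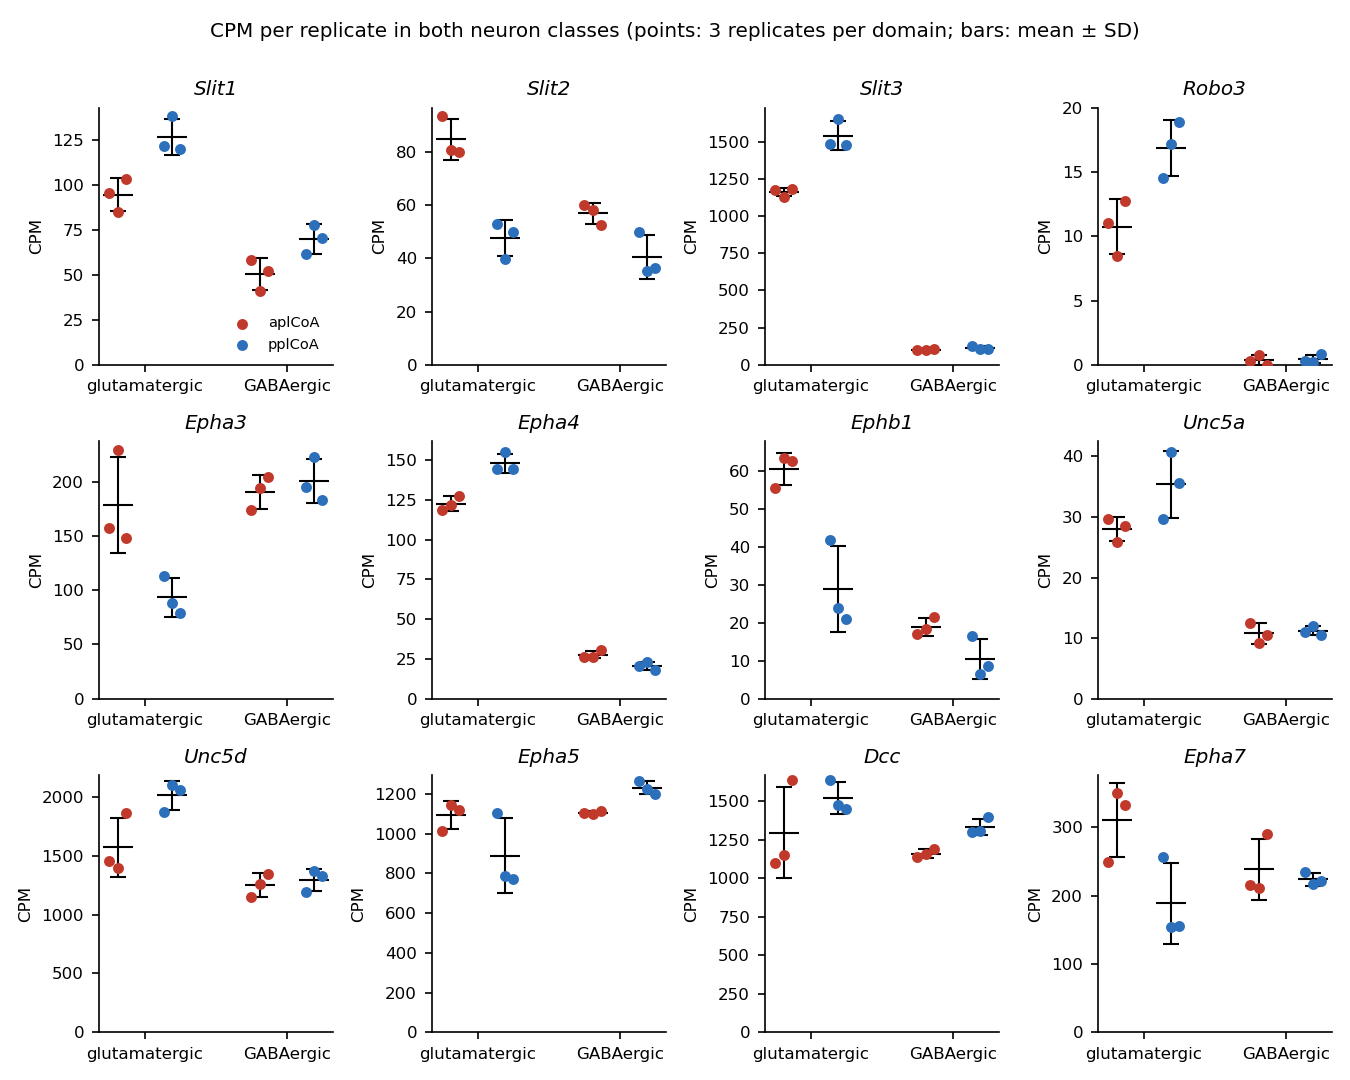
Level in CPM of the guidance genes called between domains in either neuron class, and of Epha7, with 1 point per replicate, red for aplCoA and blue for pplCoA, and bars for the mean ± SD. In glutamatergic neurons the Slit2 points of aplCoA (79.9 to 93.5 CPM) all lie above those of pplCoA (39.8 to 52.8 CPM), and the Slit1 and Slit3 points all lie below.

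Other measures moved with the domain in the same nuclei. The mitochondrial percentage of UMIs, averaged over the glutamatergic nuclei of a replicate, was 0.0195% to 0.0294% in aplCoA and 0.0114% to 0.0145% in pplCoA. That of ribosomal protein genes was 0.290% to 0.344% against 0.205% to 0.231%. Neither overlapped, while median UMIs per nucleus did. Among marker lists of other cell types, the summed level of 5 GABAergic markers was 21.7 to 38.2 CPM in aplCoA and 6.54 to 16.4 CPM in pplCoA. The 5 OPC markers summed to 570 to 607 CPM against 222 to 439 CPM, and the 5 VLMC markers to 5.999 to 8.04 CPM against 8.74 to 20.4 CPM, with no marker at 0. The single markers did not all follow their sums: 2 of 5 GABAergic, 1 of 5 OPC and, against the sum, 2 of 5 VLMC markers were higher in aplCoA without overlap. Some listed genes were also seen in neurons themselves. Lhfpl3, on the OPC list, had a UMI in 85.2% of glutamatergic nuclei. Dcn, on the VLMC list, was among the leading genes of glutamatergic cluster 7, which was unequally shared between domains and replicates. The summed lists of astrocytes, NFOLs, MOLs, microglia, macrophages, ABCs, endothelial and mural cells overlapped between domains. Within them 2 of 5 ABC, 2 of 5 macrophage and 1 of 5 astrocyte markers were higher in aplCoA without overlap. Markers lower in aplCoA without overlap were not counted. The part of these measures in the guidance gene results was not tested.

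In GABAergic neurons 3 of 23 genes tested passed, against 10.0% of all genes, and all 3 were lower in aplCoA: Slit1, Dcc and Epha5. In that direction the share of all genes was 5.54%, and in the other, where no guidance gene passed, 4.46%. Slit1 stood at 58.6, 41.0 and 52.3 CPM in aplCoA and at 61.7, 78.1 and 70.6 CPM in pplCoA, without overlap (log2 fold change -0.48 ± 0.12, adjusted p = 0.0225), around the free RNA median of 62.6 CPM. Dcc stood at 1136, 1154 and 1189 CPM in aplCoA and at 1299, 1304 and 1394 CPM in pplCoA. Its domains also did not overlap, at -0.26 ± 0.066 (adjusted p = 0.0250). Epha5, a neuronal EphA receptor, stood at 1105, 1097 and 1115 CPM against 1266, 1225 and 1202 CPM, again without overlap (-0.21 ± 0.062, adjusted p = 0.0482). In 8 of 23 genes (34.8%) the domains did not overlap, against 28.5% of all genes. Slit1 and Dcc were called in 1 of the 6 fits that left out a replicate, that without pplCoA replicate 1, and Epha5 in none.

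Genes called in glutamatergic neurons but not here kept their sign in part. Slit2 was 60.0, 57.9 and 52.6 CPM in aplCoA and 49.9, 35.1 and 36.2 CPM in pplCoA of GABAergic neurons, with no overlap but above the threshold (log2 fold change 0.41 ± 0.13, adjusted p = 0.0571). Only the value of 60.0 CPM reached the Slit2 free RNA median of 59.6 CPM (31.8 to 81.2 CPM in single libraries). Ephb1 had a log2 fold change of 0.68 ± 0.25 (adjusted p = 0.108) and Slit3 of -0.21 ± 0.085 (adjusted p = 0.156). The mean Slit3 level of GABAergic neurons lay far under its free RNA median of 537 CPM. Epha4 had the opposite sign from glutamatergic neurons, at 26.5, 26.2 and 30.6 CPM in aplCoA and 20.7, 23.1 and 18.2 CPM in pplCoA, without overlap and without passing (0.37 ± 0.13, adjusted p = 0.0842). All these Epha4 values lay far under its free RNA median of 125 CPM (87.8 to 148 CPM in single libraries). As in glutamatergic neurons, mitochondrial percentages (0.0284% to 0.0472% against 0.0213% to 0.0230%) and ribosomal percentages (0.401% to 0.440% against 0.297% to 0.351%) were higher in aplCoA. Summed markers of astrocytes were higher in aplCoA (117 to 133 against 109 to 115 CPM) and those of OPCs (336 to 359 against 369 to 380 CPM) and NFOLs (212 to 228 against 232 to 249 CPM) lower, while the other lists overlapped and no marker was at 0. Their part in the result was not tested.

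The difference between the neuron classes was tested in 1 model of both, with the replicate as a block. Of 21 guidance genes tested, 3 (14.3%) differed in their domain difference, against 5.29% of all genes. For Epha4 the log2 fold change of glutamatergic neurons was lower than that of GABAergic neurons by -0.70 ± 0.093 (adjusted p = 0.00355), and this was kept whichever replicate was left out. For Epha3, with 174, 195 and 205 CPM in aplCoA and 196, 223 and 184 CPM in pplCoA of GABAergic neurons and thus overlapping there, the difference was 0.96 ± 0.17 (adjusted p = 0.0129). It was kept in 3 of 6 fits, and lost without aplCoA replicate 1 or pplCoA replicate 2 or 3. Epha5 differed by 0.46 ± 0.11 (adjusted p = 0.0458), and was called in 1 of 6 fits, that without pplCoA replicate 1. The Slit genes showed no such difference past the threshold: Slit1 at 0.0086 ± 0.099, Slit2 at 0.35 ± 0.11 (adjusted p = 0.0966) and Slit3 at -0.26 ± 0.11 (adjusted p = 0.231).

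**Figure D3:**
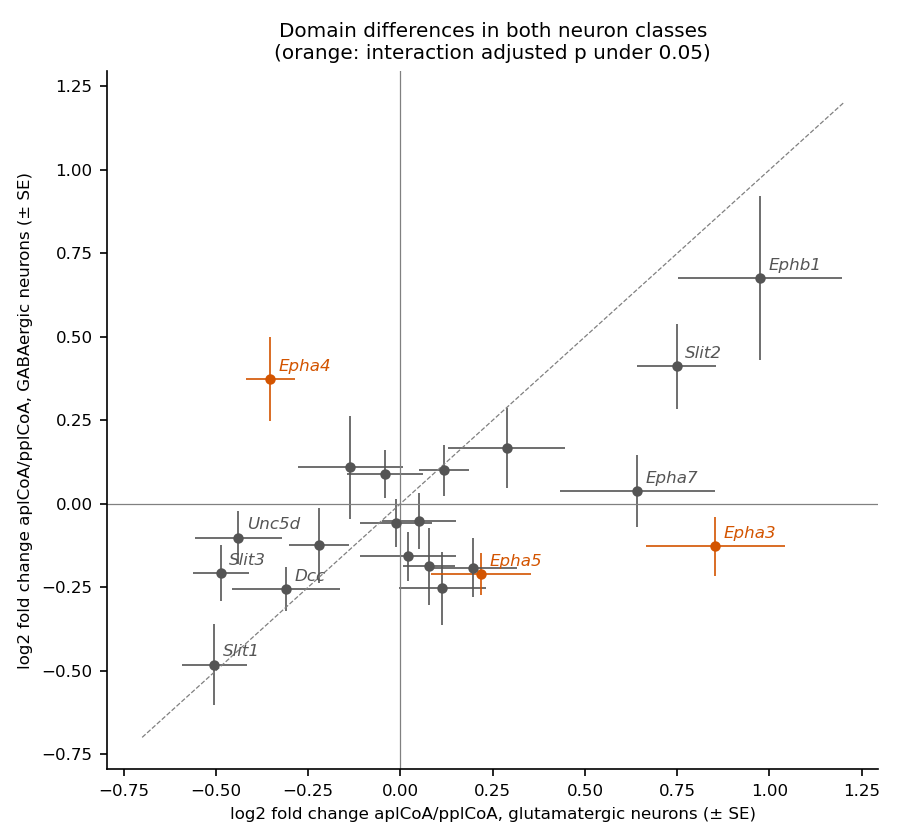
Log2 fold change (aplCoA minus pplCoA) of each guidance gene tested in both neuron classes, glutamatergic on the horizontal and GABAergic on the vertical axis, with standard errors, a dashed line of equal change, and the genes of the interaction test past the threshold in orange. Epha4 lies in the quadrant of opposite signs (-0.35 and 0.37), Epha3 has 0.85 on the horizontal and -0.13 on the vertical axis, and Slit1 is close to the dashed line (-0.50 and -0.48).

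Levels within glutamatergic neurons differed several-fold between clusters of nuclei, and the clusters were shared unequally between domains. The clusters were made without the guidance genes and without the 2036 genes that differed between domains, from the same data. Slit2 was highest in cluster 9, with Ebf2 among its leading genes, at 261 CPM over all its nuclei, followed by cluster 2 (Prlr and Zbtb7c) at 147 CPM, while cluster 1 (Plekha2 and Lama2) had 33.7 CPM and cluster 7 (Moxd1 and Dcn) 32.8 CPM. Of the nuclei of clusters 9 and 2, 95.0% and 81.4% came from aplCoA, and of cluster 7 only 6.43%, where 59.1% of all glutamatergic nuclei did. Epha3 was at 343 CPM in cluster 6 (Chrdl1 and Fign; 95.4% from aplCoA) and at 39.1 CPM in cluster 7. Slit3 was lowest among the 10 largest clusters in cluster 4 (Meis1 and Ebf1; 92.9% from aplCoA) at 453 CPM and highest in cluster 3 (Lpl among its leading genes; 38.5%) at 1900 CPM. Epha4 likewise was lowest in cluster 4 at 22.4 CPM and highest in cluster 3 at 212 CPM. Robo3 stood at 33.2 CPM in cluster 3 and 26.3 CPM in cluster 7, and at 3.00 and 2.95 CPM in clusters 4 and 2. Ephb1 was highest in cluster 2 at 97.7 CPM, and Efna5 in cluster 10 (Met and Etv1) at 827 CPM. These are levels over pooled nuclei, and a cluster can come mostly from 1 domain.

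**Figure D4:**
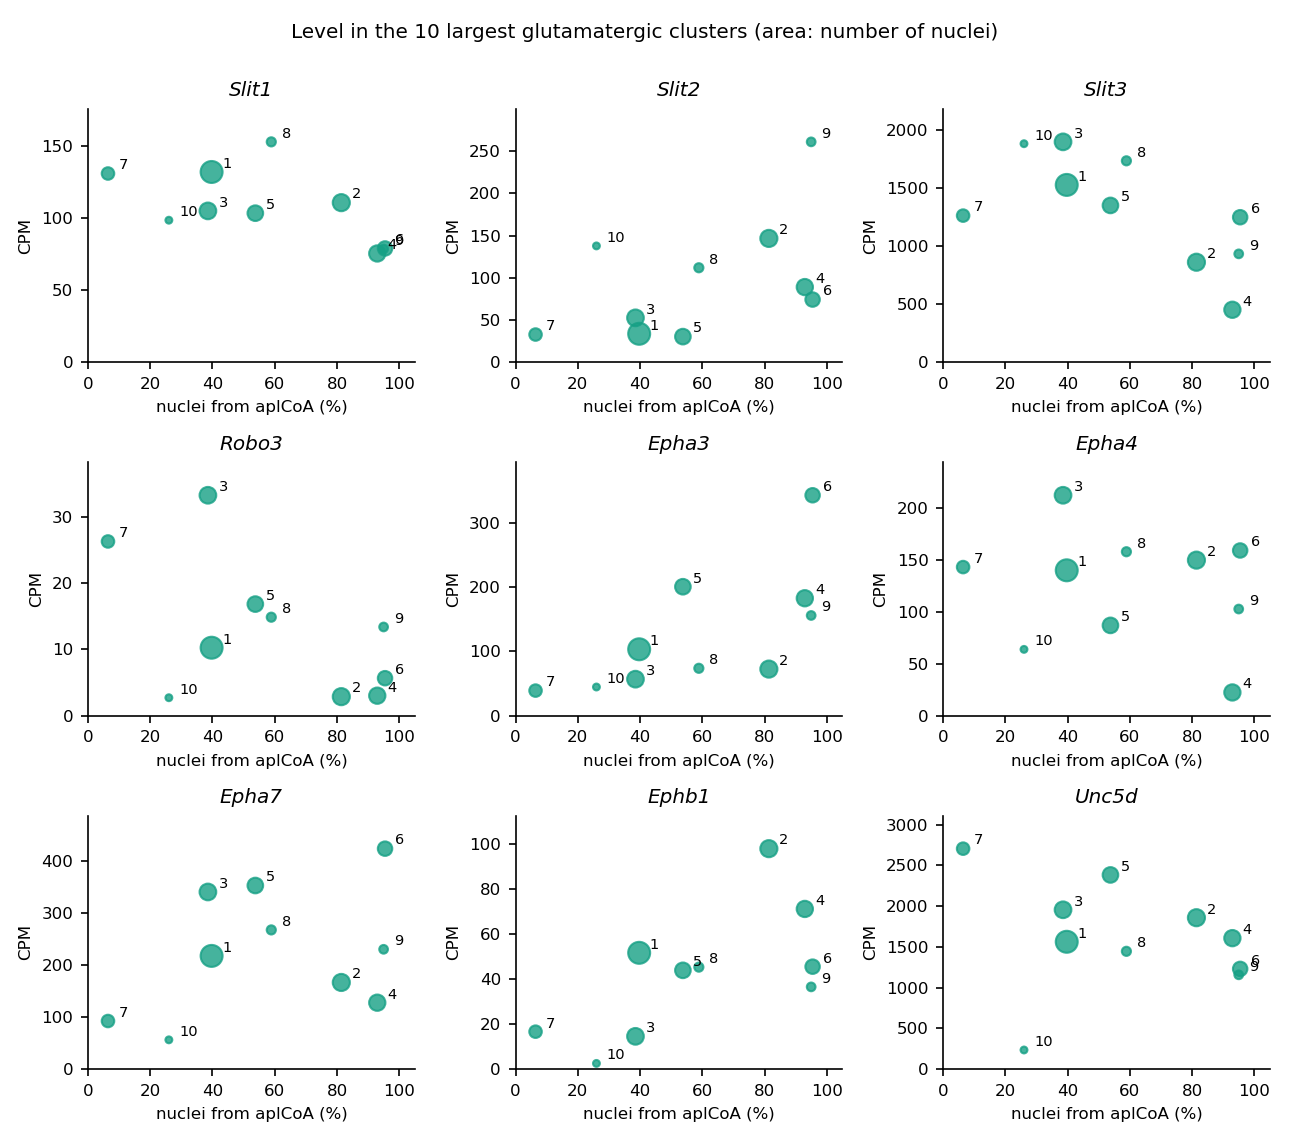
Level in CPM of 9 guidance genes, 1 point for each of the 10 largest glutamatergic clusters with its area by the number of nuclei, against the percentage of the cluster's nuclei that came from aplCoA, with the cluster number beside each point. The highest Slit2 points (cluster 9 at 261 CPM and cluster 2 at 147 CPM) lie at 95.0% and 81.4%, and the lowest Slit3 point of the large clusters (cluster 4 at 453 CPM) at 92.9%.

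Clusters 1, 3, 5 (Reln and Sema3d) and 8 (Prox1 and Trpm1) had at least 20 nuclei in every replicate and were tested alone. All 4 had high Slc17a7 (236 to 266 CPM) and little of the other transporter gene Slc17a6 (3.00 to 18.8 CPM). Clusters 2, 4 and 9, with Slc17a6 at 99.5, 170 and 103 CPM, were among those not tested, as were clusters 6 and 7. The results below do not cover them. Of 97 pairs of gene and cluster, 1 passed, Epha7 in cluster 1, which was 1 of 24 genes there against 2.23% of all genes. Its values were 226, 421 and 355 CPM in aplCoA and 208, 142 and 136 CPM in pplCoA, with no overlap, at a log2 fold change of 1.00 ± 0.22 (adjusted p = 0.0498). The values of 142 and 136 CPM lay under the Epha7 free RNA median of 169 CPM (118 to 209 CPM in single libraries). In clusters 3, 5 and 8 none of 24, 25 and 24 genes passed, against 0.0520%, 0.238% and 0.0298% of all genes, and 7, 7 and 3 had an unadjusted p under 0.05, as did 1236 of 9617, 1879 of 9675 and 787 of 10069 of all genes. The sign of Robo3 was turned in each of the 4 clusters, with log2 fold changes of 0.11 to 0.31 against -0.72 over all glutamatergic neurons, none passing. Slit3 (-0.21 to -0.027) and Slit2 (-0.29 to 0.35) were nearer to 0 in every cluster than over all glutamatergic neurons, as were Epha3 (-0.32 to 0.36), Unc5a (-0.20 to -0.037) and Unc5d (-0.44 to -0.12). Slit1 (-0.64 to 0.00080) was nearer to 0 in 3 of 4 clusters. Ephb1 (0.11 to 1.02), Epha7 (0.26 to 1.04), Epha4 (-0.65 to -0.042), Slit3, Unc5a and Unc5d kept their sign in all 4. With fewer clusters, 1 of 48 pairs passed, Unc5c in the largest at -0.45 ± 0.11 (adjusted p = 0.0493), where over all glutamatergic neurons it was -0.012. That was 1 of 24 genes against 4.71% of all genes in that cluster, and 0 of 24 against 0% in the other.

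Replicate 1 of pplCoA moved the count within clusters the most. Without it 16 pairs passed, among them Epha7 (1.22 in cluster 1 and 1.70 in cluster 5), Ephb1 (1.13, 1.38 and 1.11 in clusters 1, 3 and 5), Epha5 (0.74 and 0.69 in clusters 1 and 5), Unc5c (-0.58 and -0.61 in clusters 3 and 5) and Unc5d (-0.47 and -0.53 in clusters 1 and 8). Ntng1, which had no difference past the threshold over all glutamatergic neurons, then passed with opposite signs, at 1.63 in cluster 1 and -0.64 in cluster 3. The others were Slit1 (-0.82), Epha3 (0.61) and Epha10 (-0.41), all in cluster 5. Leaving out any other replicate gave 0 to 3 pairs, and few genes of all passed there either. In clusters 1, 3, 5 and 8 these were 171, 16, 0 and 1 without aplCoA replicate 1. Without aplCoA replicate 2 they were 0, 0, 1 and 0, and without aplCoA replicate 3 they were 138, 68, 39 and 10. Without pplCoA replicate 2 they were 0 in each cluster, and without pplCoA replicate 3 they were 0, 0, 0 and 2. Genes over the whole table also passed more often without pplCoA replicate 1. In clusters 1, 3, 5 and 8 the guidance genes called were 5 of 24, 3 of 24, 7 of 25 and 1 of 24, against 7.82%, 3.42%, 11.4% and 0.392% of all genes.

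**Figure D5:**
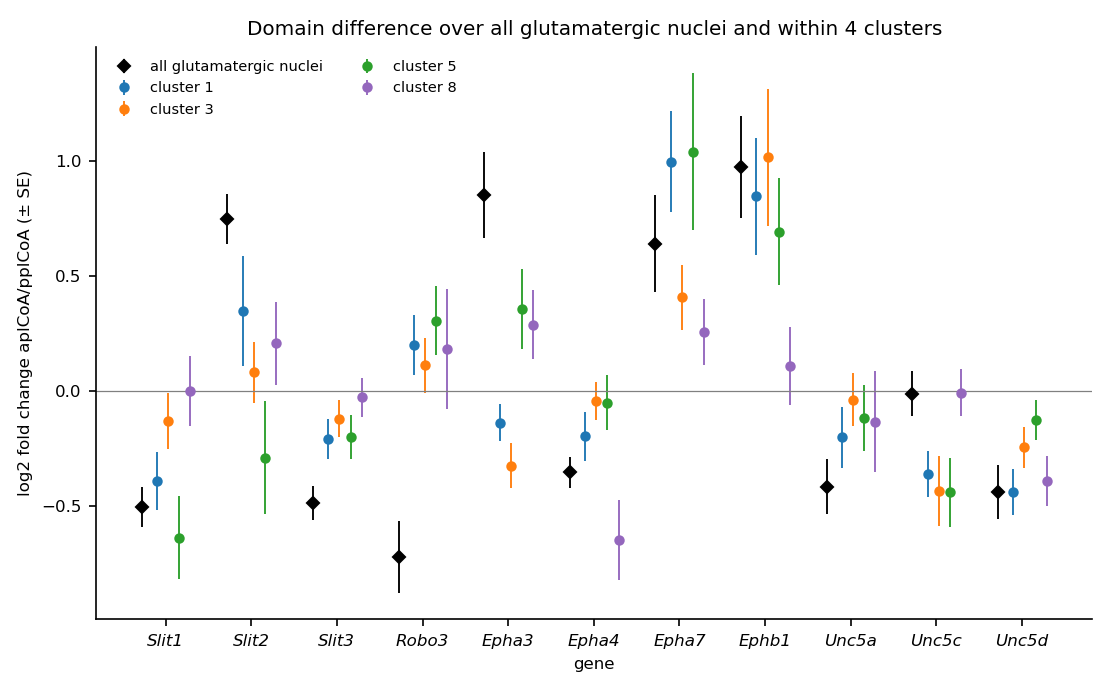
Log2 fold change (aplCoA minus pplCoA) with standard error of the guidance genes called in glutamatergic neurons or their clusters, over all glutamatergic nuclei (diamonds) and within clusters 1, 3, 5 and 8 (circles). Robo3 changes sign from -0.72 over all to between 0.11 and 0.31, Slit3 moves towards 0, and Epha7 in cluster 1 stands at 1.00.

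GABAergic nuclei were clustered in the same way, an analysis chosen after the data had been seen, and 7 clusters could be tested. The 2036 genes left out were again those of glutamatergic neurons. Genes that differed between domains in GABAergic neurons alone were kept, so these clusters could form on them. These clusters too were shared unequally between domains. From aplCoA came 86.0% of cluster 9, 75.3% of cluster 5 and 35.6% of cluster 6, and 56.6% of all GABAergic nuclei. Levels differed between them, with Dcc at 1751 CPM in cluster 1 and 261 CPM in cluster 2. The part of these shares in the calls over all GABAergic neurons was not tested. Of 143 pairs, 4 passed. In cluster 1, which led all clusters for Slit2 (177 CPM) and Slit3 (309 CPM), Slit1 stood at 40.7, 24.4 and 43.1 CPM in aplCoA and 59.2, 87.9 and 58.6 CPM in pplCoA without overlap (log2 fold change -0.86 ± 0.20, adjusted p = 0.0241), 1 of 20 genes against 1.73% of all genes. Of these Slit1 values, only 87.9 CPM lay above the free RNA median of 62.6 CPM. In cluster 2, led among others by Dkk2 and Lamp5, 2 of 20 genes passed against 3.80% of all genes. They were Slit3 (79.7, 93.8 and 55.5 against 134, 126 and 101 CPM; -0.76 ± 0.16, adjusted p = 0.00272) and Unc5d (1500, 1615 and 1700 against 1815, 2065 and 2156 CPM; -0.39 ± 0.099, adjusted p = 0.0134), both without overlap. All these Slit3 values lay far under its free RNA median of 537 CPM, while those of Unc5d lay above its median of 816 CPM. In cluster 5, led by Epyc and St8sia6 among others, Epha4 stood at 66.0, 66.5 and 62.0 CPM in aplCoA and 33.6, 17.5 and 24.0 CPM in pplCoA, without overlap, at 1.11 ± 0.23 (adjusted p = 0.0452), 1 of 22 genes against 0.456%. All these Epha4 values lay under its free RNA median of 125 CPM. None passed in clusters 3, 4, 7 and 8 (6, 8, 2 and 2 at an unadjusted p under 0.05), where 2.45%, 1.06%, 0.0214% and 0.392% of all genes did and 1078 of 7630, 997 of 9289, 647 of 9363 and 814 of 8677 had such an unadjusted p. Unc5b, at 27.3 CPM over all GABAergic neurons, reached 324 CPM in cluster 8 (Vipr2 and Egfl6) and at most 42.1 CPM in the other clusters. Unc5c ranged up to 6288 CPM in cluster 10 (Bmp5 and Hapln1).

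Outside neurons no guidance gene passed between domains. In astrocytes 0 of 9 genes tested passed by edgeR (2 at an unadjusted p under 0.05), against 0.537% of all genes, and in OPCs 0 of 14 (3 unadjusted), against 6.53%. In MOLs 0 of 11 passed (1 unadjusted) against 2.35% of all genes, and in VLMCs 0 of 14 (1 unadjusted) against 0.0174%. NFOLs, microglia and ABCs had 0% of all genes called, and 0 of 16, 4 and 14 guidance genes (1, 0 and 2 unadjusted). Of all genes, 776 of 5025 in astrocytes, 1245 of 6191 in OPCs, 629 of 4603 in MOLs, 468 of 5732 in VLMCs, 666 of 7221 in NFOLs, 248 of 5217 in microglia and 456 of 5938 in ABCs had an unadjusted p under 0.05. DESeq2 called 0 guidance genes in each of these 7 cell types. Of all genes it called 193 of 5025 in astrocytes, 269 of 6191 in OPCs, 67 of 4603 in MOLs and 7 of 5732 in VLMCs. In NFOLs, microglia and ABCs it called 0, 1 and 14 genes of all. Slit2 and Ntn1 in ABCs and Dcc in OPCs, where they reached their highest levels, had no difference past the threshold.

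A list of 44 other genes of these pathways was followed: cytoplasmic effectors such as Nck adaptors and srGAPs, and membrane partners such as Flrt, Lrrc4 and Rgm proteins. In glutamatergic neurons 39 were tested and 10 (25.6%) passed, near the 21.0% of all genes. Higher in aplCoA were Ngef (an ephexin exchange factor, log2 fold change 0.30 ± 0.082, adjusted p = 0.0349), Cdc42 (0.25), Nck1 (0.37), Srgap1 (0.39), a GTPase-activating protein of Robo signalling, and Flrt2 (0.45), an Unc5 partner. Lower were Flrt3 (-0.54 ± 0.095, adjusted p = 0.00754), Lrrc4 (-0.60), Srgap3 (-0.24), Dock1 (-0.75), an exchange factor of the Dcc pathway, and Nell2 (-0.30), a Robo3 ligand. In GABAergic neurons 6 of 41 passed (14.6%), against 10.0% of all genes: Flrt3 (-0.38), Vav3 (-0.72), Lrrc4 (-0.40) and Dock1 (-0.61) were lower in aplCoA, and Chn2 (0.39) and Nell2 (0.33) higher. Nell2 thus had opposite signs in the neuron classes, and their difference was -0.62 ± 0.11 (adjusted p = 0.0129). Lrrc4, which encodes a synaptic partner of netrin-G, was also lower in aplCoA in OPCs (-0.42, adjusted p = 0.0214) and MOLs (-0.61, adjusted p = 0.0325), the only list genes called in those types. None of 33 list genes passed in astrocytes, nor in NFOLs, microglia, VLMCs or ABCs.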

How the data were processed

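The authors aligned the reads of each 10X 3′ library with Cell Ranger (5.0.0 and mm10 in the submitters' processing notes) and deposited unfiltered matrices of UMI counts per gene and barcode. The file headers name another major version, and no deposited cell annotation was used. All sample columns were used. Barcodes with at least 1000 genes were kept, those over 5 scaled median absolute deviations above their library's median UMIs or 5 interquartile ranges above its upper quartile of mitochondrial or ribosomal percentage were removed, and the highest Scrublet scores, 1% per 1000 nuclei, were removed as doublets (4123 nuclei). Nuclei were clustered in scanpy 1.11.5 on Pearson residuals of 5000 variable genes (theta 100, 50 components, 15 neighbours, Leiden resolution 1) and named from marker genes. Neurons were clustered again at resolution 0.3.

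Counts were added up over the nuclei of each cell type in each replicate. Genes with a UMI in at least 10% of nuclei of either domain were tested with edgeR 4.0.16 (TMM scaling, quasi-likelihood test, Benjamini-Hochberg adjustment over all genes tested), in cell types with at least 20 nuclei in every replicate, in R 4.3.3, and the fits were tested on simulated counts. The study's likelihood ratio test, DESeq2 1.42.0 and other settings were alternatives. Replicates are biological replicates per the labels, each a pool of animals, and p-values measure the spread between these pools. The genes, lists and tests were chosen with earlier results of these data known. Named with values are genes called in any cell type or glutamatergic cluster, and in each cell type the genes that peak there at 20 CPM or more.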

Additional observations from a re-analysis of the deposited data

Results flagged for a closer look

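The domain difference (aplCoA minus pplCoA, log2) differed between glutamatergic and GABAergic neurons for 3 guidance genes and 3 other genes of their pathways, by edgeR's test of the difference itself. Epha4 differed by -0.70 ± 0.093, being lower in aplCoA in glutamatergic neurons and above pplCoA, short of the threshold, in GABAergic neurons. Its GABAergic values all lay far under its free RNA median of 125 CPM. Epha3 differed by 0.96 ± 0.17 and Epha5 by 0.46 ± 0.11. Flrt2, an Unc5 partner, differed by 0.46 ± 0.11 (0.45 in glutamatergic and -0.0070 in GABAergic neurons, adjusted p = 0.0434). Nell2, a Robo3 ligand, differed by -0.62 ± 0.11, with a call in each class and opposite signs. Ablim3, an actin-binding protein, differed by 0.43 ± 0.083 (0.13 and -0.28, neither called; adjusted p of the difference 0.0166). Without aplCoA replicate 1 none of these last 3 genes passed (adjusted p = 0.190 for Flrt2, 0.0647 for Nell2 and 0.108 for Ablim3), and without pplCoA replicate 2 or 3 Nell2 alone of them did. The part of mitochondrial, ribosomal and other cell types' transcripts in these differences was not tested.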

How the results depend on the processing

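For the 15 calls of guidance genes in glutamatergic or GABAergic neurons or in their difference, 141 of 207 values under the alternatives kept the call and 0 changed sign. With an adjusted p under 0.01 and a 1.5-fold change required, 1 of 24 guidance genes was called in glutamatergic neurons (9 in the main test) against 5.11% of all genes, 0 of 23 in GABAergic neurons (3) against 2.37%, and 0 other pathway genes in glutamatergic neurons (10). In GABAergic neurons DESeq2 called 5 (8.94% of all genes), the likelihood ratio test 6 (12.8%), a split of neurons by transporter and GAD UMIs 5 (10.2%), and library 1 alone of aplCoA replicate 1 called 0 (2.05%). Of the calls by DESeq2, the likelihood ratio test and the split, 2, 3 and 2 were higher in aplCoA (337, 523 and 417 of all genes). The main test had 0 in that direction (390 of all genes). Without the clusters led by Sim1, Etv1 or Fign, 17 other pathway genes were called in glutamatergic neurons, and 26.9% of all genes.

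Leaving out 1 replicate gave 4 to 11 guidance genes in glutamatergic neurons (8.71% to 25.1% of all genes) and 0 to 4 in GABAergic neurons (2.74% to 10.1%). It gave 1 to 9 in the difference between them (1.30% to 10.8%, 3 in the main test). Within glutamatergic clusters it gave 0 to 16 pairs (1 in the main test), with 0 to 1103 genes of all called in single clusters. Of the other pathway genes, 2 to 11 were called in glutamatergic neurons. The highest count of guidance or pathway genes was reached without pplCoA replicate 1 in each case. The cause was not tested.

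Replicate numbers are shared by the domains, but same-numbered replicates did not deviate together in neurons (correlations of 0.093, -0.068 and 0.13 in glutamatergic and 0.010, -0.15 and -0.014 in GABAergic neurons). With the replicate number as a block, 8 guidance genes were called in glutamatergic neurons (1938 of 9702 genes in all), 2 in GABAergic neurons (725 of 8749), 9 other pathway genes, and 0 pairs within clusters, the last chosen after seeing the data. With this block few genes of all passed in clusters 1, 3, 5 and 8 (0 of 9741, 51 of 9617, 0 of 9675 and 4 of 10069). The 2 in GABAergic neurons were Slit1 and, in place of Dcc and Epha5, Slit2. In microglia and VLMCs all 3 correlations passed 0.1, and the block changed no call of a guidance gene there.

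With no filter but 10 UMIs, 13 of 40 guidance genes were called in glutamatergic neurons, against 3123 of 23535 genes.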
